A study of Homo sapiens with 8 samples.

Results

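The Hippo pathway and the genes it controls through YAP and TAZ were followed in RNA-seq gene counts of the human lung adenocarcinoma line PC9 and its brain metastatic subline PC9-BrM3. The group holds 34 genes taken as pathway components or textbook targets. They were matched by symbol, and all 34 were found among the 63677 gene IDs of the count files. CCN1 and CCN2 carry the older names CYR61 and CTGF. By role they are 2 coactivators, 5 genes for the TEAD factors and VGLL4, 8 core kinases and scaffolds, 7 upstream regulators and 12 targets.

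The study has 4 groups of 2 libraries each. PC9 parental and PC9-BrM3 cells were untransduced and were grown for 48 h as sub-confluent monolayers before total RNA was taken. The shNTC and shHSF1 cells are both PC9-BrM3 cells carrying a lentiviral Tet-pLKO vector, with a non-target hairpin or with 1 hairpin (clone 7480) against HSF1, a transcription factor of the heat shock response. Both were selected in puromycin for 5 days and then given doxycycline at 500 ng/mL for 48 h, which switches the hairpin on. The labels do not say which stock of PC9-BrM3 cells was transduced. Only 1 HSF1 hairpin was used, so an effect of that hairpin on other transcripts and an effect of lower HSF1 cannot be told apart. By the file headers, lane 7 carried the PC9 parental and PC9-BrM3 libraries and lane 1 those with a hairpin. Comparisons were therefore made within a lane, shHSF1 against shNTC and PC9-BrM3 against PC9 parental. The labels do not say whether the 2 libraries of a group came from separate cultures, and the spread behind each p-value may be technical.

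As background, the Hippo pathway is a kinase relay. MST kinases (STK3 and STK4) with the scaffold SAV1 activate LATS kinases, which work with MOB1 proteins and phosphorylate YAP and TAZ. Phosphorylated YAP and TAZ are held in the cytoplasm or degraded, whereas the unphosphorylated proteins enter the nucleus and bind TEAD factors on DNA. Cell density, cell shape and junction proteins act on the relay from above. The pathway works largely through phosphorylation and localization, which RNA counts do not measure. In lung adenocarcinoma cells, YAP activity is known for its part in survival under EGFR inhibition.

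Transcripts of the YAP/TAZ targets were higher in the shHSF1 libraries than in the shNTC libraries for 10 of the 11 targets that could be tested, by 1.13-fold to 9.63-fold, and for the remaining one, ASAP1, the change did not pass. The pathway's own components moved in both directions. Of the paralogs, WWTR1 (which encodes TAZ), TEAD3, MOB1A and AMOTL1 fell, whereas YAP1, TEAD1, TEAD4, MOB1B and AMOTL2 rose. STK3 and its paralog STK4 both rose, as did LATS2, while LATS1, TEAD2 and AMOT did not pass. The rises of YAP1, TEAD1 and MOB1B were small and were lost in some alternatives. Over all members, 23 of the 33 tested rose and 5 fell at an edgeR adjusted p under 0.05. That is 84.8% of the members tested, against 45.7% of all genes tested (22.2% higher and 23.5% lower). A change of at least 2-fold was seen for 11 members, all higher, against 5.09% of all genes higher and 5.3% lower by that much. The median log2 fold change was 0.65 over the members and 0.01 over all genes tested. The libraries of shHSF1 and shNTC did not overlap for 33 of 33 members, against 73.2% of all genes. The members were chosen with earlier results of these data known, so these shares are not independent evidence.

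Between PC9-BrM3 and PC9 parental cells, 5 of the 33 members passed (15.2%), against 7.14% of all genes tested (3.87% higher and 3.27% lower). NF2, AMOT, ANKRD1 and NUAK2 were higher and FRMD6 was lower in PC9-BrM3. The count was 2 with replicate 1 or 2 of PC9 parental left out, 24 without PC9-BrM3 replicate 1 (51.1% of all genes) and 19 without PC9-BrM3 replicate 2 (30.8% of all genes). The median log2 fold change was 0.19 over the members and 0.01 over all genes. Libraries of both groups lay apart for 27 of the 33 members, against 59% of all genes. The log2 fold changes of all members in both contrasts are set side by side in the plot of the within-lane contrasts.

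**Figure D1:**
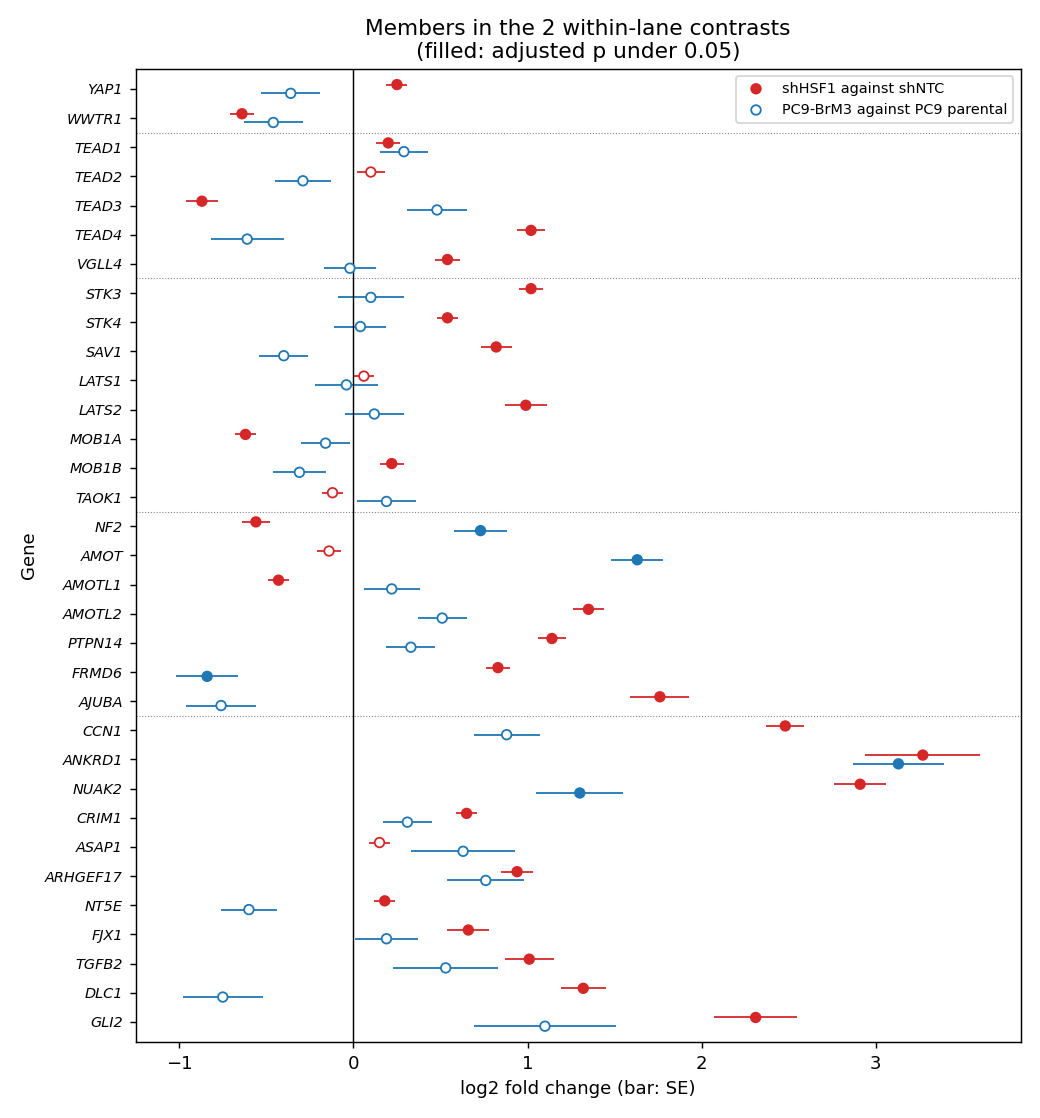
Log2 fold change (x axis) of each tested member (y axis, ordered by role with dotted lines between roles) for shHSF1 against shNTC (red) and PC9-BrM3 against PC9 parental (blue). Bars are standard errors and filled points have an edgeR adjusted p under 0.05: the red points of the targets run from 0.15 to 3.27, while only 5 blue points are filled.

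Library totals ran from 33550140 to 56715336 counts, so levels are given as CPM (counts scaled to a common library size) with TMM factors computed over all 8 libraries. Where levels are ranked over all 8 libraries, here and in the figures, the ranking crosses lanes, is a description and was not tested. HSF1 itself had 178 and 184 CPM in shNTC and 15.6 and 13.5 CPM in shHSF1, a log2 change of −3.61 ± 0.08 (SE), in the direction of the labels. In the untransduced libraries it had 46.9 to 54.6 CPM, so shNTC lay above untransduced PC9-BrM3. Lane, cell stock, transduction and doxycycline cannot be told apart there. The 10 markers of epithelial cells and lung adenocarcinoma summed to between 4810 and 8790 CPM, with 6990 and 7250 in shNTC and 8410 and 8790 in shHSF1, and their part in the results was not tested. Of that list, the lung markers NKX2-1 and NAPSA were below 1 CPM in every library. The lung marker SFTPB had 11.5 and 15.6 CPM in PC9 parental and 1.58 and 2.65 CPM in PC9-BrM3 (adjusted p = 0.0127). It had 0.351 and 1.14 CPM in shNTC and 0.0257 and 0.112 CPM in shHSF1 (adjusted p = 0.00911), and its part in the results was not tested. The 7 fibroblast markers summed to at most 0.0957 CPM and 2 of them were at 0 throughout, and the 5 blood markers summed to at most 1.53 CPM. The 2 PC9-BrM3 libraries differed from each other more than any other pair, with a chi-square per degree of freedom of 301 against 10.9 to 25.1.

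YAP1 and WWTR1 encode the coactivators themselves. YAP1 (chromosome 11, 101981192 to 102104154 in GRCh37) had 339 and 366 CPM in shNTC and 407 and 418 CPM in shHSF1. It had 451 and 459 CPM in PC9 parental and 391 and 314 CPM in PC9-BrM3. Both shHSF1 libraries were above both shNTC libraries, and the rise was small, at 0.25 ± 0.06 (SE) on the log2 scale with an edgeR adjusted p of 0.00614. The call was lost when shNTC replicate 1 was left out (0.20, adjusted p = 0.0555) and when all 8 libraries shared 1 fit (adjusted p = 0.232). In the subline contrast the YAP1 change of −0.36 ± 0.17 did not pass (adjusted p = 0.242).

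WWTR1 (chromosome 3, 149235022 to 149454501) had 87.8 and 85.3 CPM in shNTC and 53.6 and 56.0 CPM in shHSF1. The untransduced libraries held 128 and 112 CPM in PC9 parental and 79.2 and 94.3 CPM in PC9-BrM3, and the 2 shHSF1 libraries were the lowest of all 8. WWTR1 fell by 0.64 on the log2 scale (SE 0.07, 1.55-fold, adjusted p = 4.08e-05) and kept this call in all 11 alternatives. Its subline change of −0.46 ± 0.17 did not pass (adjusted p = 0.163). Per kilobase of exon, the ratio of YAP1 to WWTR1 transcript was 10.1 and 9.96 in the shHSF1 libraries. In the other 6 libraries it lay between 4.45 and 6.59.

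The 4 TEAD genes encode the DNA-binding partners of YAP and TAZ. TEAD4 had 32.6 and 31.4 CPM in shNTC and 60.8 and 66.8 CPM in shHSF1. In the untransduced cells it had 20.8 and 23.6 CPM (PC9 parental) and 16.6 and 12.3 CPM (PC9-BrM3). The shHSF1 libraries were the highest of the series, and TEAD4 rose 2.02-fold (log2 1.02 ± 0.08, adjusted p = 5.59e-06). TEAD3 moved the other way, from 32.9 and 34.1 CPM in shNTC to 18.8 and 17.3 CPM in shHSF1, a log2 change of −0.87 ± 0.09 (adjusted p = 3.51e-05). PC9 parental held 20.9 and 24.01 CPM of TEAD3 and PC9-BrM3 28.9 and 33.5 CPM. The subline changes of both genes had signs opposite to the knockdown and did not pass: −0.61 ± 0.21 for TEAD4 (adjusted p = 0.15) and 0.48 ± 0.17 for TEAD3 (adjusted p = 0.155).

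TEAD1 had 228 and 215 CPM in shNTC and 266 and 235 CPM in shHSF1, beside 244 and 222 CPM in PC9 parental and 281 and 287 CPM in PC9-BrM3. Its rise of 0.20 ± 0.07 was close to the threshold (adjusted p = 0.046). It was lost without shNTC replicate 2 (0.15, adjusted p = 0.227), without shHSF1 replicate 1 (0.10, adjusted p = 0.35) and with all 8 libraries in 1 fit (adjusted p = 0.3). TEAD2, with 32.9 and 35.4 CPM in shNTC and 35.7 and 36.0 CPM in shHSF1, did not pass (0.10 ± 0.08, adjusted p = 0.344). The untransduced libraries had 16.9 to 22.1 CPM of TEAD2, and its subline change of −0.29 did not pass either (adjusted p = 0.311). VGLL4, which competes with YAP for TEAD, rose from 65.9 and 62.0 CPM to 92.7 and 90.3 CPM (log2 0.54 ± 0.07, adjusted p = 0.000127).

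The makeup of the TEAD transcripts can be read per kilobase of exon, summed over TEAD1 to TEAD4. TEAD4 made up 38.5% and 42.7% of that sum in shHSF1 and 25% and 24.4% in shNTC. TEAD3 made up 8.87% and 8.24% in shHSF1 and 18.8% and 19.7% in shNTC. TEAD1 took 35.4% and 31.5% in shHSF1 and 36.8% and 35.1% in shNTC, and in the untransduced libraries it was the largest part, at 44.4% to 54.3%. TEAD4 was therefore the most abundant TEAD transcript per kilobase in both shHSF1 libraries, and TEAD1 in the other 6. That order depends on the annotated exon length, which is 10816 bases for TEAD1 and 2272 for TEAD4. The length of the transcripts expressed here was not measured, and in CPM TEAD1 stayed above TEAD4 in every library.

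**Figure D2:**
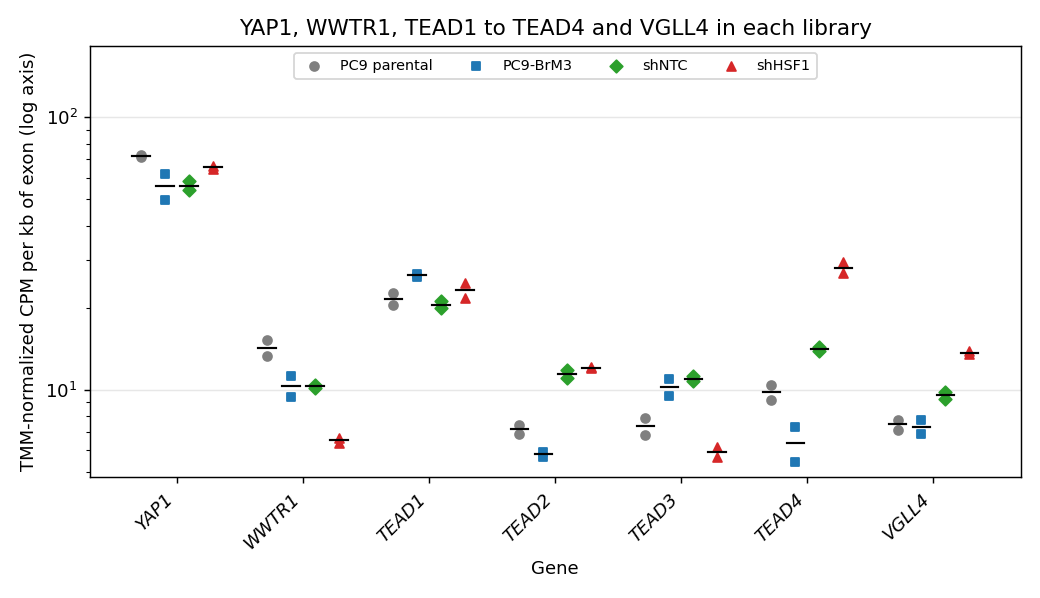
Level of YAP1, WWTR1, TEAD1 to TEAD4 and VGLL4 (x axis) in TMM-normalized CPM per kilobase of exon (y axis, log scale), with 1 point per library and a bar at each group's mean. The shHSF1 triangles lie below all other libraries for WWTR1 and TEAD3 and above them for TEAD4 and VGLL4.

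Of the 8 core kinases and scaffolds, 5 rose in shHSF1, 1 fell and 2 did not pass. That is 75% passing, against 45.7% of all genes tested (22.2% higher and 23.5% lower). The median log2 fold change of the 8 was 0.38, beside 0.01 over all genes tested. STK3, which encodes the kinase MST2, rose 2.03-fold, from 32.2 and 31.0 CPM in shNTC to 64.5 and 62.0 CPM in shHSF1 (log2 1.02 ± 0.07, adjusted p = 3.5e-06). It had 37.0 and 41.3 CPM in PC9 parental and 35.6 and 47.8 CPM in PC9-BrM3, so both shHSF1 libraries were above all others. Its paralog STK4 (MST1) rose by 0.54 ± 0.06 (adjusted p = 6.22e-05), and SAV1, the scaffold that joins MST to LATS, by 0.82 ± 0.09 (adjusted p = 5.04e-05).

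LATS1 and LATS2 are the kinases that phosphorylate YAP and TAZ directly, and LATS2 is itself known as a YAP target. LATS2 had 15.01 and 12.2 CPM in shNTC and 28.2 and 25.02 CPM in shHSF1, a log2 change of 0.99 ± 0.12 (adjusted p = 0.000124). LATS1 had 65.1 CPM in both shNTC libraries and 67.0 and 66.8 CPM in shHSF1, and did not pass (0.06, adjusted p = 0.448). Per kilobase the ratio of LATS2 to LATS1 was 0.633 and 0.564 in shHSF1 and 0.258 to 0.347 in the other 6 libraries.

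MOB1A and MOB1B encode near-identical coactivators of LATS. MOB1A fell from 285 and 274 CPM in shNTC to 179.8 and 178 CPM in shHSF1 (−0.62 ± 0.06, adjusted p = 1.67e-05), while the untransduced libraries held 278 to 317 CPM. MOB1B rose by 0.22 ± 0.07 (adjusted p = 0.029). That call was kept in 6 of 11 alternatives: it was lost without shNTC replicate 2 (adjusted p = 0.188), without shHSF1 replicate 1 (0.116) or 2 (0.056), with all 8 libraries in 1 fit (0.226) and with DESeq2 (0.0503). Per kilobase, the ratio of MOB1A to MOB1B was 4.47 and 4.52 in shHSF1 and 6.73 to 8.2 elsewhere. Reads that the paralogs share cannot be assigned with certainty, so this ratio depends on how such reads were counted. TAOK1, a kinase that acts on MST, did not pass (−0.12 ± 0.06, adjusted p = 0.104).

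In the subline contrast, 0 of the 8 core genes passed with edgeR (7.14% of all genes) or with DESeq2 (12.7% of all genes), and 1 (SAV1) had an unadjusted p under 0.05 with each tool. Their log2 fold changes lay between −0.40 (SAV1) and 0.19 (TAOK1). The groups did not overlap for 4 of the 8 genes, against 59% of all genes.

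Of the 7 upstream regulators, 4 rose in shHSF1 (AMOTL2, PTPN14, FRMD6 and AJUBA), 2 fell (NF2 and AMOTL1) and AMOT did not pass. That is 85.7% passing, against 45.7% of all genes tested (22.2% higher and 23.5% lower). AJUBA, a LIM protein that inhibits LATS at junctions under tension, had 35.03 and 24.1 CPM in shNTC and 98.7 and 99.1 CPM in shHSF1. PC9 parental held 18.3 and 17.3 CPM of AJUBA and PC9-BrM3 11.6 and 9.32 CPM, the lowest of the series. The knockdown change was 3.38-fold (log2 1.76 ± 0.17, adjusted p = 0.000442), and the subline change of −0.76 ± 0.20 did not pass (adjusted p = 0.0798).

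The angiomotins AMOT, AMOTL1 and AMOTL2 bind YAP and keep it out of the nucleus, and AMOTL2 is also known as a YAP target. AMOTL2 rose from 66.8 and 59.5 CPM in shNTC to 170.3 and 148 CPM in shHSF1, 2.56-fold (log2 1.35 ± 0.09, adjusted p = 2.08e-06). It had 47.6 and 48.8 CPM in PC9 parental and 69.5 and 67.1 CPM in PC9-BrM3, and that difference of 0.51 did not pass (adjusted p = 0.0915). AMOTL1 was the most abundant of the family in every library and fell from 564 and 616 CPM to 423 and 438 CPM (−0.43 ± 0.06, adjusted p = 0.000334). Of the family's sum per kilobase, AMOTL2 made up 35.1% and 31.4% in shHSF1 and 8.68% to 14.0% in the other 6 libraries.

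AMOT had 115 and 128 CPM in PC9 parental and 355 and 396 CPM in PC9-BrM3, 3.1-fold (log2 1.63 ± 0.15, adjusted p = 0.00606), and the call was kept in all 11 alternatives. In the transduced PC9-BrM3 cells it had 104 and 95.2 CPM with shNTC and 89.7 and 87.6 CPM with shHSF1, a change of −0.14 ± 0.07 that did not pass (adjusted p = 0.114). Both shNTC libraries thus lay at the level of PC9 parental and not at that of untransduced PC9-BrM3. Lane, the stock of cells that was transduced, transduction, selection and doxycycline cannot be told apart there, which limits how far shNTC stands for untransduced PC9-BrM3.

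NF2 encodes merlin, a junction protein that promotes LATS activation. It fell from 140 and 131 CPM in shNTC to 84.0 and 98.0 CPM in shHSF1 (−0.56 ± 0.08, adjusted p = 0.000366). In the untransduced cells it had 83.0 and 93.4 CPM in PC9 parental and 137 and 154 CPM in PC9-BrM3, a rise of 0.73 ± 0.15 (1.66-fold, adjusted p = 0.0474). The shHSF1 libraries were thus near PC9 parental and the shNTC libraries near PC9-BrM3, a comparison across lanes that was not tested. The subline call was lost with replicate 1 or 2 of PC9 parental left out (adjusted p = 0.592 without replicate 1 and 0.415 without replicate 2), with RLE factors (0.0519) and with the replicate number as a block (0.0582).

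FRMD6, a FERM-domain protein that promotes Hippo signalling, had 140 and 127 CPM in shNTC and 239.5 and 226 CPM in shHSF1, a rise of 0.83 ± 0.07 (adjusted p = 9.88e-06). It had 134 and 127 CPM in PC9 parental and 81.3 and 63.6 CPM in PC9-BrM3, a fall of 0.84 on the log2 scale (SE 0.18, 1.79-fold, adjusted p = 0.0496). That second call was lost without PC9 parental replicate 1 (adjusted p = 0.373) or 2 (0.277) and with a filter of at least 1 CPM in 2 libraries (0.0572). For FRMD6 the shNTC libraries lay near PC9 parental and not near untransduced PC9-BrM3, a comparison across lanes that was not tested. PTPN14, a phosphatase that restrains YAP and is also known as a target, rose 2.21-fold, from 51.2 and 45.4 CPM in shNTC to 109 and 101 CPM in shHSF1 (log2 1.14 ± 0.08, adjusted p = 3.65e-06). PC9 parental held 43.6 and 43.0 CPM of PTPN14 and PC9-BrM3 55.5 and 52.9 CPM, a change that did not pass (0.33, adjusted p = 0.217).

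**Figure D3:**
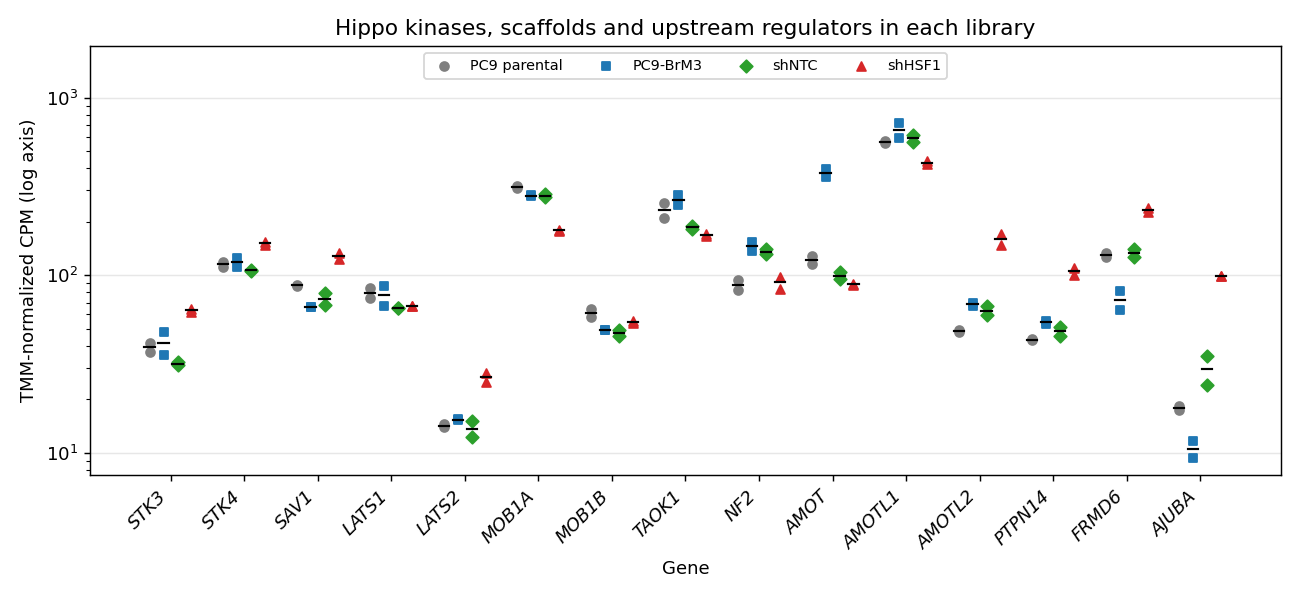
Level of the 8 core kinases and scaffolds and the 7 upstream regulators (x axis) in TMM-normalized CPM (y axis, log scale), with 1 point per library and a bar at each group's mean. The 2 PC9-BrM3 squares stand above all other libraries for AMOT, and the shHSF1 triangles stand above all others for AMOTL2, AJUBA, PTPN14 and STK3.

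The targets are the genes that YAP, TAZ and TEAD switch on, and 3 of them are shown by the 250 bases before their start because their transcripts were the most changed or the least abundant of the group. The sequences are from RefSeq (GRCh38.p14), all on the minus strand and written 5′ to 3′ towards the start: ANKRD1 at chr10:90921088-90921337, NUAK2 at chr1:205321746-205321995 and CCN2 at chr6:131951373-131951622. Capitals mark GGAATG or its reverse complement CATTCC, the core letters that TEAD factors bind.
ANKRD1: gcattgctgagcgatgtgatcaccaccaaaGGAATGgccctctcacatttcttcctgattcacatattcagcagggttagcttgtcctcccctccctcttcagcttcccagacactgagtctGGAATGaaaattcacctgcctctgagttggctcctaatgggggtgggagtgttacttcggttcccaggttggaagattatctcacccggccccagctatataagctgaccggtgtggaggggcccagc
NUAK2: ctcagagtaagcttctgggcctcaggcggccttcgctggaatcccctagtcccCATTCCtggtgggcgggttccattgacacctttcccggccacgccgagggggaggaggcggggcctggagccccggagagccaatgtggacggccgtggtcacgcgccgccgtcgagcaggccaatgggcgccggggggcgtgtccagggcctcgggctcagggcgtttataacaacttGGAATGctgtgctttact
CCN2: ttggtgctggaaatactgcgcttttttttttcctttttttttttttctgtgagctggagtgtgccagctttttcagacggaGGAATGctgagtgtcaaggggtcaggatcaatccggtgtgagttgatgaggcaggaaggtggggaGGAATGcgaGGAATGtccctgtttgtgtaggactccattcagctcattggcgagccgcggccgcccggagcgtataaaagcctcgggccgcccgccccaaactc

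ANKRD1 held GGAATG at 220 to 215 and at 128 to 123 bases before the start. NUAK2 held CATTCC at 197 to 192 and GGAATG at 18 to 13 bases before it. CCN2 held GGAATG in 3 places, at 169 to 164, 104 to 99 and 95 to 90 bases before the start. RefSeq windows, each from 250 bases before to 50 bases after a start and 39 in number, were found for 26 of the 34 members. In them the TEAD core, searched on both strands in the bases before the start, occurred in 8 windows of 8 members (20.5%), against 11.9% of all 35116 windows. The other 5 members were YAP1, AMOTL2, PTPN14, AJUBA and TGFB2. TGANTCA, the AP-1 site, was in 4 of the 39 windows (6.6% of all), TTCNNGAA in 2 (6.6% of all) and GAANNTTC in 4 (5.8% of all). TTCNNGAA and GAANNTTC are the cores of the heat shock element that HSF1 binds, and each of these last 3 motifs reads the same on both strands. In ANKRD1, GAANNTTC at 123 to 116 bases before the start shares 1 base with the nearer TEAD core. These are letter matches only, and no binding was measured.

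ANKRD1, an ankyrin-repeat protein of muscle and stressed cells, was the most changed member. It had 26.4 and 15.4 CPM in shNTC and 215 and 184 CPM in shHSF1, 9.63-fold (log2 3.27 ± 0.33, adjusted p = 0.00732). The subline contrast was as large, with 8.09 and 7.14 CPM for PC9 parental and 52.5 and 80.2 CPM for PC9-BrM3, 8.75-fold (log2 3.13 ± 0.26, adjusted p = 0.00479). The groups did not overlap in either contrast. The subline call was kept in all 11 alternatives. The knockdown call was lost without shHSF1 replicate 1 (log2 3.15) or 2 (log2 3.38) and with no count filter (adjusted p = 0.0574). Over the 11 alternatives the knockdown log2 change of ANKRD1 ran from 2.94 to 3.72. Its 2 shNTC libraries differed 1.71-fold. Per kilobase, ANKRD1 ranked 25 of the 34 members for PC9 parental, rank 7 for PC9-BrM3, rank 19 for shNTC and rank 2 for shHSF1.

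CCN1, a secreted matricellular protein, had 58.6 and 49.1 CPM in shNTC and 319 and 272 CPM in shHSF1, 5.56-fold (log2 2.48 ± 0.11, adjusted p = 6.97e-07). It had 38.4 and 37.3 CPM in PC9 parental and 58.3 and 80.0 CPM in PC9-BrM3. The untransduced groups did not overlap, but the change of 0.88 ± 0.19 did not pass (adjusted p = 0.0567). Per kilobase CCN1 was the most abundant of the 34 members in shHSF1.

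NUAK2, a kinase of the AMPK family that feeds back on YAP, had 3.26 and 2.94 CPM in shNTC and 25.9 and 20.2 CPM in shHSF1, 7.53-fold (log2 2.91 ± 0.15, adjusted p = 6.54e-07). The PC9 parental libraries held 1.47 and 1.42 CPM and the PC9-BrM3 libraries 3.45 and 3.61 CPM, 2.46-fold (log2 1.30 ± 0.25, adjusted p = 0.0383). The subline call was lost without PC9 parental replicate 1 (adjusted p = 0.394) or 2 (0.422). Both PC9-BrM3 libraries were close to the shNTC ones, and the shHSF1 libraries stood above all 6 others.

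CCN2, the most widely used YAP reporter gene and a secreted paralog of CCN1, was almost undetected. Its reads numbered 2 and 1 for the PC9 parental libraries, 0 and 0 for PC9-BrM3, 1 and 0 for shNTC and 16 and 9 for shHSF1. It did not pass the count filter of either contrast and was not tested there. Scaled to library size, the 25 reads of shHSF1 against the 1 read of shNTC give a ratio of 29.8, with an exact 95% interval of 4.88 to 1220 that covers counting error only. CCN2 was the least abundant of the 34 members per kilobase in every group.

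DLC1 rose 2.5-fold, from 10.7 and 8.14 CPM in shNTC to 23.1 and 23.4 CPM in shHSF1 (log2 1.32 ± 0.13, adjusted p = 3.17e-05). PC9 parental held 13.2 and 10.6 CPM of it and PC9-BrM3 7.81 and 6.25 CPM, a change of −0.75 that did not pass (adjusted p = 0.119). TGFB2, a ligand of the TGF-beta pathway, had 53.9 and 43.3 CPM in shNTC and 107 and 85.7 CPM in shHSF1, 2.01-fold (log2 1.01 ± 0.14, adjusted p = 0.00107). The PC9-BrM3 libraries, at 60.0 and 112 CPM, were far apart for TGFB2, and PC9 parental lay at 56.5 and 63.3 CPM. GLI2, a transcription factor of the Hedgehog pathway, was rare at 0.784 and 0.735 CPM in shNTC and 4.26 and 3.17 CPM in shHSF1, a 4.95-fold rise (log2 2.31 ± 0.24, adjusted p = 4.45e-05). PC9 parental held 0.301 and 0.21 CPM of GLI2 and PC9-BrM3 0.507 and 0.601 CPM, a change of 1.1 ± 0.41 that did not pass (adjusted p = 0.17).

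The other targets rose by less. ARHGEF17 rose by 0.94 ± 0.09 (adjusted p = 2.1e-05), FJX1 by 0.66 ± 0.12 (adjusted p = 0.00137) and CRIM1 by 0.65 ± 0.06 (adjusted p = 1.25e-05) on the log2 scale. NT5E, the ectonucleotidase CD73, rose by 0.18 ± 0.06 (adjusted p = 0.0336), a call kept in 6 of 11 alternatives. It was lost without shNTC replicate 2 (adjusted p = 0.228), without shHSF1 replicate 1 (0.0982) or 2 (0.0906), with no count filter (0.0578) and with all 8 libraries in 1 fit (0.414). ASAP1, an Arf GTPase-activating protein, had 312 and 307 CPM in shNTC and 352 and 324 CPM in shHSF1, and its change of 0.15 did not pass (adjusted p = 0.0716). ASAP1 passed in 3 of 11 alternatives, among them the fit without shHSF1 replicate 2 (0.21). Over the 11 tested targets the median log2 fold change was 1.01 for shHSF1 against shNTC and 0.63 for PC9-BrM3 against PC9 parental. Over all genes it was 0.01 in each contrast. Of the 11, 2 (ANKRD1 and NUAK2) passed in the subline contrast, or 18.2%, against 7.14% of all genes tested (3.87% higher and 3.27% lower).

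**Figure D4:**
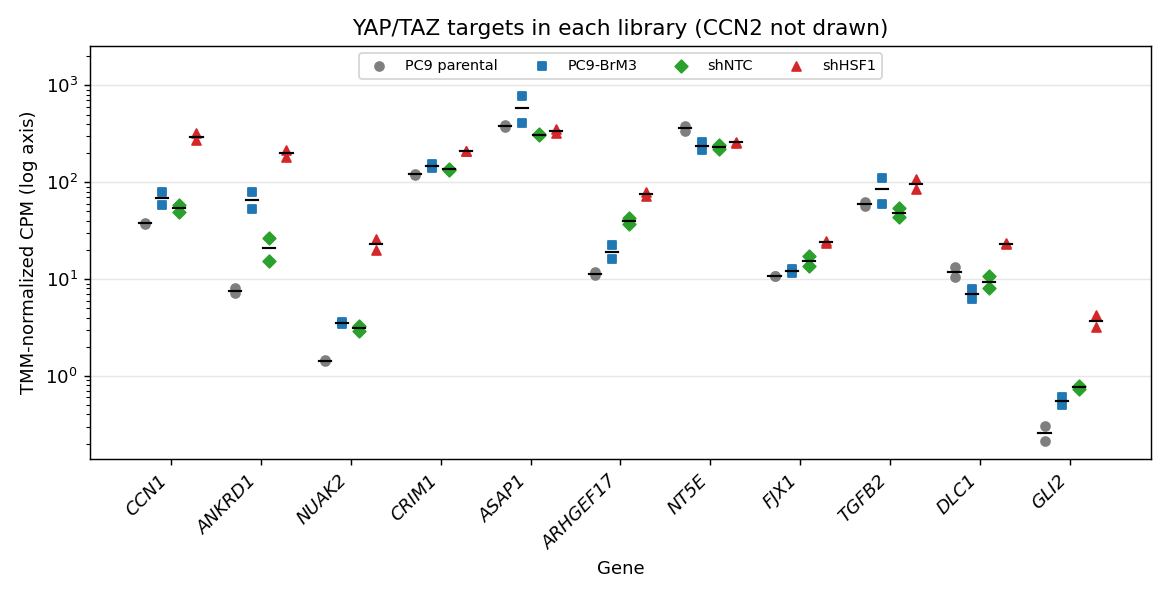
Level of 11 YAP/TAZ targets (x axis; CCN2 is left out for its near-zero counts) in TMM-normalized CPM (y axis, log scale), with 1 point per library and a bar at each group's mean. For CCN1, ANKRD1, NUAK2, DLC1, ARHGEF17 and GLI2 both shHSF1 triangles lie above the 6 other libraries.

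Whether the knockdown change of a member differed from its subline change was tested directly over all 8 libraries, as shHSF1 minus shNTC less PC9-BrM3 minus PC9 parental. The difference passed for 22 of the 34 members, 17 of them higher and 5 lower, against 23.5% of all genes (9.77% higher and 13.8% lower). For 10 of the 22 it passed in all 14 alternatives. These were higher for AJUBA (2.51 ± 0.26, adjusted p = 0.000515), DLC1 (2.06, adjusted p = 0.00141), FRMD6 (1.65, adjusted p = 0.000752), TEAD4 (1.61, adjusted p = 0.00163), NUAK2 (1.6, adjusted p = 0.00337), CCN1 (1.59, adjusted p = 0.00253) and SAV1 (1.21, adjusted p = 0.00141). They were lower for AMOT (−1.79 ± 0.15, adjusted p = 0.00024), TEAD3 (−1.37, adjusted p = 0.0016) and NF2 (−1.30, adjusted p = 0.00153). CCN1 and NUAK2 thus moved more with the hairpin than with the subline, whereas for ANKRD1 the difference was 0.13 ± 0.38 and did not pass (adjusted p = 0.832).

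The difference passed less firmly for STK3 (0.91, adjusted p = 0.0161), LATS2 (0.86, 0.0182), AMOTL2 (0.83, 0.00807), PTPN14 (0.80, 0.00759), NT5E (0.76, 0.0142), YAP1 (0.60, 0.038), VGLL4 (0.54, 0.0357), MOB1B (0.51, 0.0388) and STK4 (0.48, 0.0491). On the lower side the same holds for AMOTL1 (−0.67, 0.0212) and MOB1A (−0.47, 0.0288). CCN2 also passed (adjusted p = 0.0306), but 1 group was at 0, so its fitted value has no use as a size. With 1 library left out, the count of members that passed ran from 10 (without shNTC replicate 2, and without shHSF1 replicate 1) to 27 (with replicate 1 or 2 of PC9-BrM3 left out). It was 14 and 12 without PC9 parental replicate 1 or 2, and 13 without shNTC replicate 1 or shHSF1 replicate 2. The share of all genes moved with it, from 11.1% to 12.3% without a library of the other groups to 49.6% and 37% without PC9-BrM3 replicate 1 or 2.

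By sign alone, 15 of the 33 members changed upwards in both contrasts, 2 downwards in both (WWTR1 and MOB1A), 11 up with the hairpin and down in the subline, and 5 the reverse. By calls, ANKRD1 and NUAK2 were higher in both contrasts. FRMD6 was higher with the hairpin and lower in the subline, and NF2 was the reverse.

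A wider list of 46 pathway components was taken for role and not for how its genes moved, though with earlier results of these data known. Of its 43 tested genes, 12 rose and 14 fell in shHSF1 (60.5%, against 45.7% of all genes), with a median log2 fold change of −0.01. With upper-quartile scaling the split was 15 higher and 10 lower, and with all 8 libraries in 1 fit 12 genes passed in all. VGLL3, a TEAD cofactor, rose most, from 14.8 and 11.3 CPM in shNTC to 58.0 and 40.0 CPM in shHSF1 (log2 1.92 ± 0.22, adjusted p = 0.00111). The untransduced libraries had 12.67 and 11.65 CPM of VGLL3 in PC9 parental and 29.74 and 34.97 CPM in PC9-BrM3. For VGLL3, shNTC thus lay near PC9 parental and below untransduced PC9-BrM3. WWC1 (KIBRA), a scaffold upstream of LATS, rose by 0.99 ± 0.06 (adjusted p = 1.25e-06) and STK38L (NDR2), a kinase related to LATS, by 0.95 ± 0.10 (adjusted p = 3.54e-05). The largest falls were those of MAP4K5, a kinase that acts on LATS in parallel to MST (−1.42 ± 0.08, adjusted p = 9.91e-07), SIKE1, a part of the STRIPAK phosphatase complex (−1.05 ± 0.07, adjusted p = 1.75e-06), and STK38 (NDR1; −0.78 ± 0.06, adjusted p = 9.88e-06). STK38 and STK38L, like the MOB1 and TEAD3/TEAD4 pairs, moved in opposite directions, whereas STK3 and STK4 both rose.

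In the subline contrast 6 of the 43 tested components rose and 2 fell (18.6%, against 7.14% of all genes). RASSF2, which binds MST kinases, rose from 13.9 and 14.4 CPM in PC9 parental to 49.6 and 44.1 CPM in PC9-BrM3 (log2 1.73, adjusted p = 0.00591). RASSF4 (1.66, adjusted p = 0.0171) and VGLL3 (1.42, adjusted p = 0.0129) also rose. RASSF6 had 65 reads in PC9 parental and 5 in PC9-BrM3, a ratio of 11 with an exact 95% interval of 4.46 to 34.9 for counting error (adjusted p = 0.0276). STRIP2, of the STRIPAK complex, fell by 0.89 (adjusted p = 0.0313). Without PC9 parental replicate 1 or 2 the calls of RASSF4 (adjusted p = 0.189 and 0.0863), VGLL3 (0.068 and 0.0795), RASSF6 (0.143 and 0.0783) and STRIP2 (0.277 and 0.275) were lost. In each of those fits 1 of the 43 components passed, with 2.23% and 2.64% of all genes. Without PC9-BrM3 replicate 1 there were 28 (51.1% of all genes) and without replicate 2 there were 17 (30.8% of all genes).

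A list of 27 further YAP/TAZ targets had 23 tested genes, of which 15 rose and 4 fell in shHSF1 (82.6%, against 45.7% of all genes; median log2 fold change 0.68). AXL, F3, GADD45A, EDN1 and AREG of this list, and a further list of targets, were in an earlier account of these data. The direction of the list is therefore not independent evidence. EDN1, the vasoactive peptide endothelin, had 3.30 and 3.59 CPM in shNTC and 68.8 and 47.9 CPM in shHSF1 (log2 4.11 ± 0.20, adjusted p = 4.49e-06). F3, tissue factor, rose by 2.50 ± 0.08 (adjusted p = 4.12e-08) and INHBA, an activin subunit, by 2.35 ± 0.17 (adjusted p = 0.000182). FSTL1 fell by 1.41 (adjusted p = 1.95e-07), and HMMR and BIRC5, which are also genes of mitosis, by 0.89 (adjusted p = 0.000149) and 0.82 (adjusted p = 1.78e-05) on the log2 scale.

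In the subline contrast 23 genes of this list were also tested, with TNS1 in place of AREG. Of them, 3 rose and 4 fell (30.4%, against 7.14% of all genes, with a median log2 fold change of 0.06). TNS1, a focal adhesion protein, had 0.177 and 0.325 CPM in PC9 parental and 1.80 and 3.13 CPM in PC9-BrM3 (log2 3.29, adjusted p = 0.0193). EDN1 rose by 2.06 (adjusted p = 0.0251) and IGFBP3 by 1.81 (adjusted p = 0.0153). LIFR, a cytokine receptor chain, fell from 76.8 and 74.8 CPM to 2.80 and 2.92 CPM (−4.72, adjusted p = 0.00156), and AMIGO2 by 1.89 (adjusted p = 0.0107). COL8A1, a collagen chain, had 552 reads in PC9 parental and 1 read in PC9-BrM3 (adjusted p = 0.00373), a ratio of 465 with an exact 95% interval of 83.2 to 18400 for counting error. The calls of TNS1 (adjusted p = 0.0507) and EDN1 (0.0659) were lost without PC9 parental replicate 1, and that of IGFBP3 with replicate 1 or 2 of PC9-BrM3 left out (0.0608 and 0.0951). In all, 4 of the 23 passed without PC9 parental replicate 1 (2.23% of all genes) and 15 with replicate 1 or 2 of PC9-BrM3 left out (51.1% and 30.8% of all genes).

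**Figure D5:**
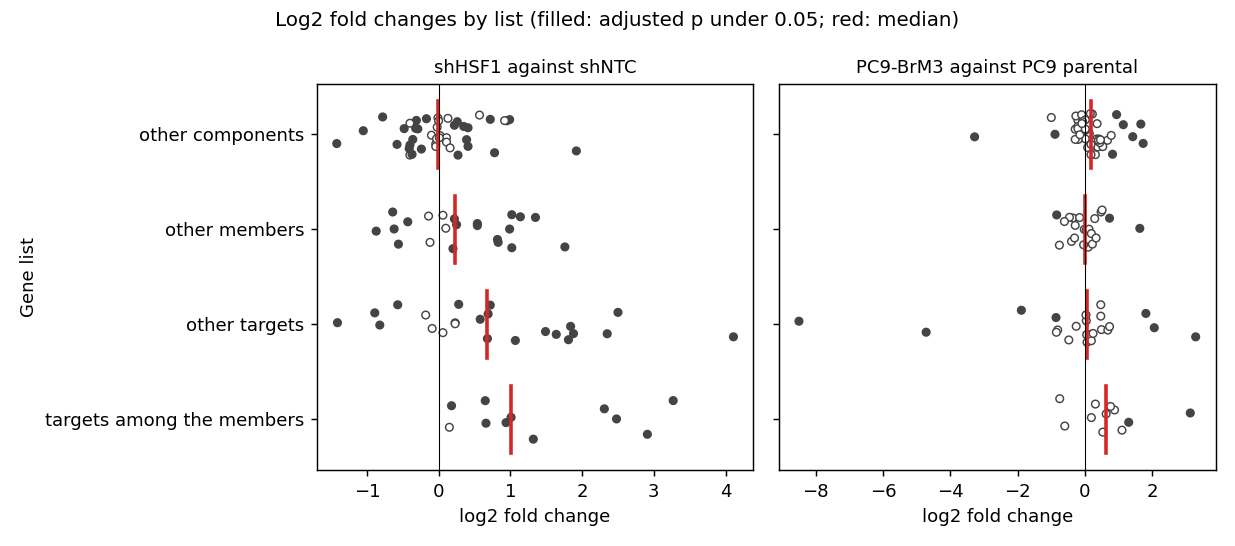
Log2 fold change (x axis) of each tested gene in 4 lists (y axis) for shHSF1 against shNTC (left) and PC9-BrM3 against PC9 parental (right), with filled points at an edgeR adjusted p under 0.05 and a red bar at each median. The list medians in the knockdown run from −0.01 for the other components to 1.01 for the targets among the members; the 2 points far to the left on the right panel are COL8A1 and LIFR.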

How the data were processed

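Raw read counts per gene were taken as deposited by the authors, 1 file per library. Per the file headers, they were made with featureCounts 1.6.1 over exons by Ensembl gene ID (GRCh37), counting reverse-stranded reads. Per the submitters' processing notes, Trim Galore, HISAT2, featureCounts and DESeq2 were used. Symbols matched 52181 IDs (81.9%). Strand-aware counting separates antisense genes, and same-strand exon overlap of a member with another gene was at most 3.12% of its exon length.

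The 4 libraries of a contrast were fitted alone with the robust quasi-likelihood F test of edgeR 4.0.16 under R 4.3.3, after TMM scaling and filterByExpr at a count of 10 and a total of 15, with Benjamini-Hochberg adjustment over all genes tested and a threshold of 0.05. The script was tested on simulated data. Alternatives were DESeq2 1.42.0, upper-quartile and RLE factors, other count filters, 1 fit of all 8 libraries, a replicate block and leaving out each library. Library totals of 33550140 to 56715336 set the counting precision.

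Members and lists were chosen with earlier results of these data known. Values are given for the coactivators and TEAD factors, for members that passed with at least a 2-fold knockdown change or passed in the subline contrast or the difference of contrasts, and for the 3 largest passing changes of each wider list per direction. Of the marker lists, the 4 endothelial genes summed to 19.5 to 55.9 CPM (mostly CDH5) and the 5 neural genes to 96.5 to 161 CPM (mostly MBP). Protein sequences were not analysed here.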

Additional observations from a re-analysis of the deposited data

How the results depend on the processing

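Of the 28 members called in the knockdown, 23 kept their call and sign in all 11 alternatives; YAP1, TEAD1, MOB1B, ANKRD1 and NT5E did not. Of the 5 called in the subline contrast, AMOT and ANKRD1 did. No member changed sign past the threshold under the alternatives run. The subline count of 5 members (7.14% of all genes) became 9 with DESeq2 (12.7%), 12 with no count filter (10.6%) and 15 with all 8 libraries in 1 fit (21%). With that fit, 12 other components were called in the knockdown in place of 26 (21.4% of all genes in place of 45.7%), and 11 other targets in the subline contrast in place of 7. The cause of these shifts was not tested.

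Leaving out 1 library gave 24 to 28 members, 20 to 23 other components and 16 to 18 other targets in the knockdown. In the subline contrast it gave 2 to 24 members, 1 to 28 other components and 4 to 15 other targets, and 10 to 27 members for the difference of contrasts. Without PC9-BrM3 replicate 1, 24 members and 51.1% of all genes were called, and without replicate 2, 19 and 30.8%. With replicate 1 or 2 of PC9 parental left out, 2 members were called, with 2.23% and 2.64% of all genes. Such fits leave 1 library in an arm, which is assumed to vary like the others.

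Replicate numbers were not shown to pair the libraries (correlation of same-numbered deviations 0.01 in both contrasts). With the replicate number as a block, 29, 5 and 18 members were called in the knockdown, the subline contrast and their difference. The shares of all genes called there were 47.6%, 7.64% and 20.8%. Depth limits CCN2, RASSF6 and COL8A1, with 5 or fewer reads in a group.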

Other observations

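CCN2 lies on chromosome 6 at 132269316 to 132272513 (GRCh37). Its neighbours were listed only above a minimum read total, so silent genes nearby are absent and the list cannot show whether CCN2 stands out. Of the listed neighbours, the small nucleolar RNA SNORA33 was also rare, at 0.308 to 0.871 CPM. STX7, at 132767006 to 132834337, had 87.1 to 110.0 CPM in the 8 libraries, and MED23, at 131895106 to 131949369, had 47.2 to 106.0 CPM. ENPP1, at 132129156 to 132216295, had 14.7 and 16.2 CPM for PC9 parental, 0.976 and 1.68 for PC9-BrM3, 10.5 and 11.3 for shNTC and 5.52 and 5.69 for shHSF1.

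Several genes stood near the PC9 parental level in the shNTC libraries and away from it in untransduced PC9-BrM3, as AMOT did. By the values given above, FRMD6, EDN1 and VGLL3 followed this pattern too, and so did ENPP1, though somewhat below PC9 parental. COL8A1 had 4.35 and 5.85 CPM for PC9 parental, 0.0188 and 0 for PC9-BrM3 and 4.13 and 5.99 for shNTC. TNS1 had 0.165 and 0.0816 CPM in shNTC, against 1.80 and 3.13 in PC9-BrM3. LIFR did not follow this pattern: it had 5.00 and 5.58 CPM in shNTC, near the 2.80 and 2.92 of PC9-BrM3 and far from the 76.8 and 74.8 of PC9 parental. NF2 and NUAK2 did not follow this pattern either, and their shNTC libraries lay near PC9-BrM3. All of these genes were chosen after their values were seen. No test was made between the lanes, and lane, the stock of cells that was transduced, transduction and doxycycline cannot be told apart.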
